A study of Mus musculus with 6 samples.

Results

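The genes examined were the low- and high-affinity receptors for immunoglobulin G (Fcgr1, Fcgr2b, Fcgr3 and Fcgr4), their shared signalling chain Fcer1g, the kinase Syk and 3 C-type lectins of the Clec4 family (Clec4d, Clec4e and Clec4a2). They were chosen by name, as the rows of the gene table carrying these symbols, and all 9 were found among 41386 genes. RNA-seq read counts were compared between hippocampi after cerebral ischemia/reperfusion (I/R) and hippocampi after sham surgery, with 3 libraries in each group. The I/R mice had the middle cerebral artery blocked with a filament for 1.5 h and were then reperfused for 24 h, and the sham mice, per the study's methods, had the same operation without the filament. All mice were C57BL/6 by the labels (C57BL/6J in the study's methods) and 56 days old, with no transgene named, and per the study's methods they were male and the hippocampus of the operated side was taken. Hippocampi of several mice were combined for a library, and each error given here is therefore a spread between pools rather than between animals.

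Fcγ receptors bind the constant part of antibodies, and in the brain they are carried mainly by microglia and by macrophages, monocytes and neutrophils that enter or border the tissue. Fcgr1, Fcgr3 and Fcgr4 pass their signal through Fcer1g, whose activation motif (ITAM) recruits Syk, whereas Fcgr2b carries an inhibitory motif (ITIM) of its own. Clec4d (also called MCL) and Clec4e (Mincle) bind glycolipids, and Clec4e also binds a nuclear protein released by dead cells; both signal through Fcer1g and Syk, while Clec4a2 (DCIR) is an inhibitory lectin with an ITIM.

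On the BALB/cJ assembly used by the table, 4 members lay within 323.7 kb of chromosome 1. Fcgr2b was at chr1:169974583-169992885 on the minus strand, Fcgr4 at chr1:170037453-170048277 on the plus strand, Fcgr3 at chr1:170070327-170078884 on the minus strand and Fcer1g at chr1:170293618-170298268 on the minus strand. The 3 lectins lay within 176.5 kb of chromosome 6, Clec4a2 at chr6:121160473-121190229 and Clec4d at chr6:121305765-121318915 on the plus strand, and Clec4e at chr6:121328854-121336935 on the minus strand. Fcgr1 was at chr3:93835229-93846011 on the minus strand and Syk at chr13:50204940-50273032 on the plus strand. The identifiers were MGP_BALBcJ_G0016679 for Fcgr2b, MGP_BALBcJ_G0016680 for Fcgr4, MGP_BALBcJ_G0016681 for Fcgr3, MGP_BALBcJ_G0016689 for Fcer1g, MGP_BALBcJ_G0031219 for Clec4a2, MGP_BALBcJ_G0031222 for Clec4d, MGP_BALBcJ_G0031223 for Clec4e, MGP_BALBcJ_G0027588 for Fcgr1 and MGP_BALBcJ_G0020507 for Syk. Each range spans the whole gene, exons and introns.

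The promoters of 4 members are printed: Fcgr4, Clec4d and Clec4e, which were at or near 0 in sham hippocampus, and Clec4a2, the one member with no call. Each window runs from 250 bases before to 50 bases after the RefSeq start on GRCm38.p6, a build other than that of the table, and is given 5′ to 3′ on the strand of the gene. The windows are chr1:171018676-171018975 (plus strand) for Fcgr4, chr6:123261857-123262156 (plus) for Clec4d, chr6:123289822-123290121 (minus) for Clec4e and chr6:123122440-123122739 (plus) for Clec4a2. Capitals mark GAGGAA on either strand (TTCCTC on the opposite one), a sequence bound by PU.1, a transcription factor of myeloid cells. The shorter GGAA within it was not counted, and it also stands in the Clec4a2 window.
Fcgr4: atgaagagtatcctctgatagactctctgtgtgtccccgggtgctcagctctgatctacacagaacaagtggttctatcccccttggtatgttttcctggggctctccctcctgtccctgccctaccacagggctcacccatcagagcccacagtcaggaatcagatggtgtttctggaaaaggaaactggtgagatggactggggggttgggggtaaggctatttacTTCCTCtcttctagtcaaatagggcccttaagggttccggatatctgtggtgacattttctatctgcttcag
Clec4d: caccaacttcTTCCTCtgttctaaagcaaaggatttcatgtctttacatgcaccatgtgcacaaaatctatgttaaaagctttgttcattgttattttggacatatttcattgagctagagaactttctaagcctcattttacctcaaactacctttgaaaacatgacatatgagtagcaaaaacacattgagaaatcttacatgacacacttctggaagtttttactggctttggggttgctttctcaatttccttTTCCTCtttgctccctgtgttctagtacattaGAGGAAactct
Clec4e: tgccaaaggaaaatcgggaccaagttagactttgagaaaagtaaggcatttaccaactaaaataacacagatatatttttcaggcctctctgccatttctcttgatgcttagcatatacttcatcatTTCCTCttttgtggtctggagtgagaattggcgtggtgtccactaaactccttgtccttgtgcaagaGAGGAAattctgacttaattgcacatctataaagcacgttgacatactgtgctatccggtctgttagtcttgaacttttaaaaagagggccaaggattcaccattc
Clec4a2: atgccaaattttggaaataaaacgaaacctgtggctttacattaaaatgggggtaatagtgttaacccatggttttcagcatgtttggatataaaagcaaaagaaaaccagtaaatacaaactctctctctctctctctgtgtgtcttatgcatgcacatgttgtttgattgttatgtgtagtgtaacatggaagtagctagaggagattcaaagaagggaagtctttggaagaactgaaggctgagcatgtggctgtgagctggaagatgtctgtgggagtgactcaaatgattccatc

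GAGGAA stood 1 time in the Fcgr4 window, 22 bases before the start, 3 times in the Clec4d window, 2 times in the Clec4e window and 0 times in the Clec4a2 window. All 9 members had a RefSeq window, and GAGGAA was also in those of Fcgr1, Fcgr3 and the second start of Syk. It was not in those of Fcgr2b, Fcer1g and the first start of Syk. For comparison, 28.3% of 32851 promoter windows of this length held it. The C/EBP motif TTNCNNAA, searched on both strands, was in the windows of Fcgr4 (1 match), Clec4d (3), Clec4e (2) and Clec4a2 (2, overlapping each other), and also in those of Fcgr3 (2) and the second start of Syk (1, overlapping its GAGGAA). It was not in those of Fcgr1, Fcgr2b, Fcer1g and the first start of Syk, and 40.7% of all windows held it. The NF-kB motif GGGRNNYYCC was in the windows of Fcgr4 and Fcgr3 and in none of the other members, beside 8.46% of all windows. These matches are descriptions of the letters and not measured binding.

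A first look at all 9 genes showed 8 members higher after I/R, none lower, and Clec4a2 not called. A gene was called at an adjusted p under 0.05 (edgeR quasi-likelihood test, Benjamini-Hochberg over 18569 genes tested) with a fold change over 1.2. Libraries held 37493042 to 44788547 counts. Changes were common in this comparison: 41.8% of the genes tested were called, 21.8% were called higher, and in 29.3% every I/R library lay above every sham library. The last was true of the 8 called members as well. Over all genes 4054 were called higher and 3702 lower, but 6334 and 2027 when libraries were scaled by their totals alone; the 8 members were called higher under both scalings. Clec4d, Clec4e and Fcgr4 passed the filter on low counts only through their I/R libraries, so that for these genes a difference was built into being tested. In RNA of a whole tissue, more cells of a type and more RNA per cell cannot be told apart, and this holds for every change below.

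**Figure D1:**
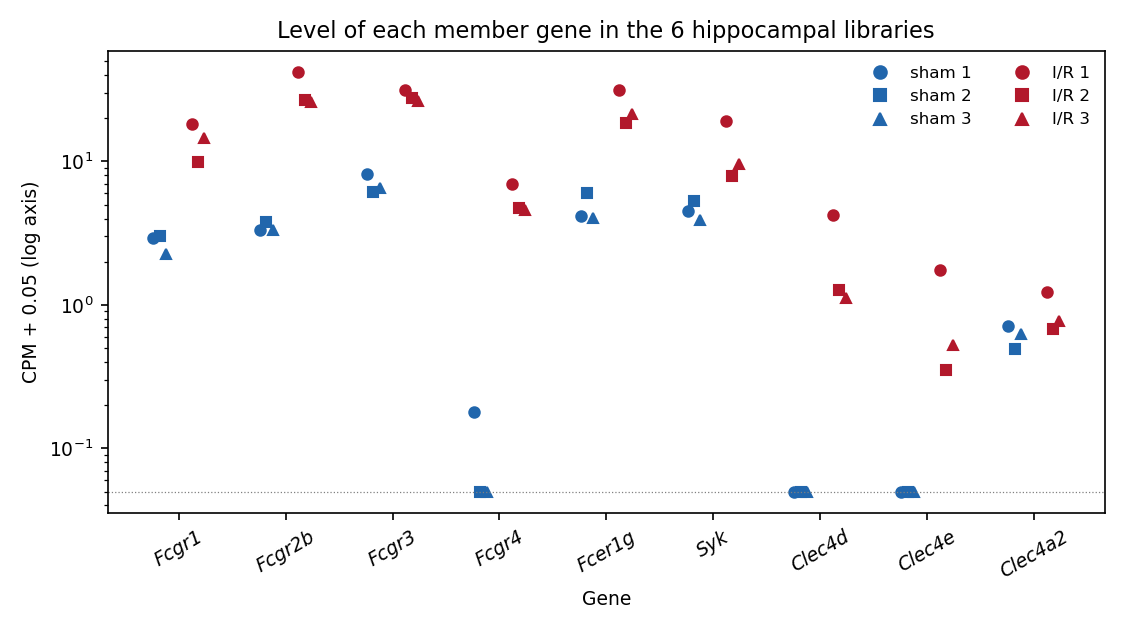
Level of the 9 genes in the 6 libraries, as CPM plus 0.05 on a log axis; blue symbols are sham and red symbols I/R, with a circle, square and triangle for replicates 1, 2 and 3, and the dotted line marks 0 counts. Every I/R symbol lies above every sham symbol for each gene except Clec4a2, and I/R replicate 1 is the highest library for all 9.

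Among the receptors that bind antibody, the inhibitory Fcgr2b had the largest change of those with reads in every library. It had 42.1, 26.9 and 25.8 CPM (counts per 1000000 of the scaled library size) in I/R replicates 1, 2 and 3, against 3.25, 3.72 and 3.26 CPM in sham replicates 1, 2 and 3. The sham libraries were close together and the lowest I/R library stood far above the highest of them. It rose by 3.21 on the log2 scale (SE 0.217, 9.27-fold, edgeR adjusted p = 0.000215).

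Fcgr1, the high-affinity receptor, had 18.2, 9.81 and 14.6 CPM after I/R and 2.89, 2.95 and 2.21 CPM in sham. The groups did not overlap, and the change was 2.40 on the log2 scale (SE 0.254, 5.28-fold, edgeR adjusted p = 0.000662). Fcgr3, a low-affinity activating receptor, had 31.4, 27.8 and 26.5 CPM after I/R against 8.07, 6.08 and 6.51 CPM. It had the most even I/R libraries of the 9 genes, the highest being 1.18 times the lowest, and rose by 2.05 (SE 0.144, 4.15-fold, edgeR adjusted p = 0.000215). Fcgr2b and Fcgr3 are near-copies over part of their transcripts: in the GENCODE M21 transcripts 9.58% of the 50-base stretches of Fcgr3, and 2.54% of its 100-base stretches, were shared with Fcgr2b. How reads from there were counted is not given in the sources used here, so the counts of both are to that extent uncertain.

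Fcgr4, an activating receptor of monocytes, macrophages and neutrophils in mice, was almost silent without ischemia. It had 316, 187 and 181 counts in the I/R libraries and 5, 0 and 0 counts in the sham libraries. All its sham reads came from sham replicate 1. The fitted change was 6.85 on the log2 scale (SE 0.695, edgeR adjusted p = 0.000562), and without that library, when every sham library left is at 0, it was 10.75, a value set by the fit's prior count; against a floor of 3 counts per library the rise was then at least 66.9-fold.

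Fcer1g, the chain that carries the ITAM, had 31.6, 18.5 and 21.2 CPM after I/R and 4.10, 6.00 and 3.98 CPM in sham. The groups were apart, with sham replicate 2 the highest of its group, and the change was 2.34 on the log2 scale (SE 0.251, 5.05-fold, edgeR adjusted p = 0.000675). Syk, the kinase bound by phosphorylated ITAMs, had 19.2, 7.93 and 9.58 CPM after I/R against 4.46, 5.29 and 3.84 CPM. I/R replicate 1 had 2.42 times the Syk level of I/R replicate 2. Syk had the smallest change among the called members, 1.43 on the log2 scale (SE 0.333, 2.70-fold, edgeR adjusted p = 0.0108), and 0.95 (1.93-fold, edgeR adjusted p = 0.000785) without I/R replicate 1.

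Clec4d and Clec4e were read after ischemia alone. Clec4d had 191, 49 and 43 counts in the I/R libraries and Clec4e had 77, 12 and 19, while both had 0 counts in each of the 3 sham libraries. A count of 0 does not show absence at this depth, so the size is given against the floor of 3 counts per library: Clec4d was at least 27.3-fold higher (edgeR adjusted p = 0.00329) and Clec4e at least 10.4-fold higher (edgeR adjusted p = 0.00905). I/R replicate 1 held 67.5% of the I/R counts of Clec4d and 71.3% of those of Clec4e. Without that library the bounds were 14.5-fold and 4.89-fold.

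Clec4a2, the inhibitory lectin, was the one member not called. It had 54, 25 and 29 counts after I/R and 26, 18 and 20 counts in sham, or 1.19, 0.63 and 0.73 CPM against 0.67, 0.44 and 0.58 CPM. I/R replicate 2 lay below sham replicate 1, so the groups overlapped. Its change of 0.59 on the log2 scale (SE 0.40, edgeR adjusted p = 0.274) did not pass the threshold, and without I/R replicate 1 it was 0.26. With this SE and these low counts a rise of Clec4a2 is not excluded. In the GENCODE M21 transcripts 6.69% of the 50-base stretches of Clec4a2, mostly with Clec4a4 and Clec4b1, and 2.14% of its 100-base stretches were shared with other genes, and its count is uncertain to that extent.

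**Figure D2:**
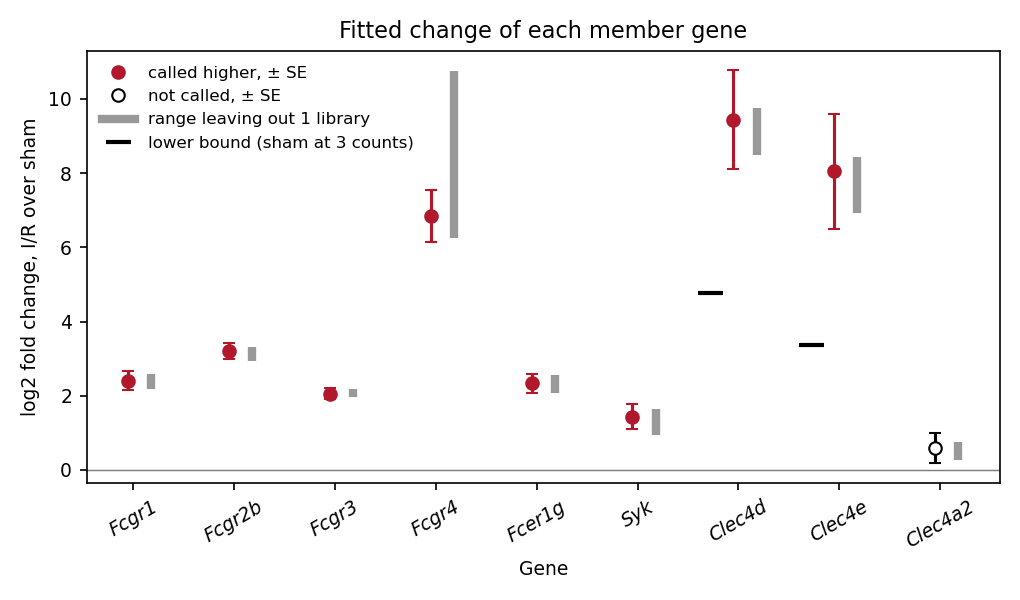
Log2 fold change, I/R over sham, fitted by edgeR for each gene with its SE (filled red, called higher; open, not called), the range of the same value when 1 library is left out (grey bar) and, for Clec4d and Clec4e, the lower bound with the sham libraries set at 3 counts (black dash). The 5 called genes with reads in every library sit between 1.43 and 3.21, Clec4a2 is at 0.59, and the fitted points of Fcgr4, Clec4d and Clec4e, whose sham counts were at or near 0, move most.

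Levels of different genes can be set side by side only per length, for which the deposited FPKM (reads relative to gene length and library reads) were used. These are scaled by library totals alone. The lengths they imply differ unevenly from the table's length column: 1552 against 3225 bases for Fcgr2b, 962 against 1323 for Fcgr1 and 1320 against 1346 for Fcgr3. The order of genes, their shares and the level of their ratios depend on which length is right. The difference of a log2 ratio between the groups does not. In sham hippocampus Fcer1g was highest at 7.48 ± 1.75 FPKM (SD, n = 3), followed by Fcgr3 at 4.78 ± 0.755, Fcgr1 at 2.55 ± 0.387, Fcgr2b at 2.01 ± 0.142, Syk at 1.15 ± 0.178 and Clec4a2 at 0.425 ± 0.0877 FPKM. The libraries of Fcgr1 and Fcgr2b overlapped in this order, and Fcgr4, Clec4d and Clec4e were listed at or near 0. After I/R Fcer1g was again first at 45.6 ± 15.5 FPKM. Fcgr3 at 23.7 ± 3.22, Fcgr2b at 22.45 ± 7.63 and Fcgr1 at 16.25 ± 5.45 FPKM overlapped from one to the next. Fcgr4 at 4.72 ± 1.43, Syk at 3.77 ± 2.07 and Clec4d at 2.57 ± 2.21 FPKM overlapped likewise, and Clec4a2 at 0.769 ± 0.311 and Clec4e at 0.428 ± 0.413 FPKM were lowest. Clec4d thus stood above Clec4a2 in every I/R library, and below it in every sham library.

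The make-up of the receptor group shifted with its size. At the lengths implied by the FPKM, the sum of the 4 ligand-binding Fcγ receptors was 86.7, 55.7 and 58.9 FPKM in the I/R libraries. It was 10.4, 9.14 and 8.56 FPKM in the sham libraries. Fcgr2b took 36.02%, 33.1% and 29.97% of it after I/R and 18.5%, 23.8% and 22.5% in sham, while Fcgr3 took 31.6%, 40.3% and 36.2% against 54.0%, 45.7% and 52.9%. Neither gene's shares overlapped between the groups. For each the exact permutation test gave p = 0.1 (two-sided), which is the smallest that 3 libraries against 3 allow. Fcgr4 took at most 0.901% of the sum in sham and between 6.49% and 7.33% after I/R. The share of Fcgr1 overlapped between the groups, at 24.0% ± 4.06 after I/R and 27.2% ± 2.99 in sham (SD, n = 3, exact permutation p = 0.5).

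**Figure D3:**
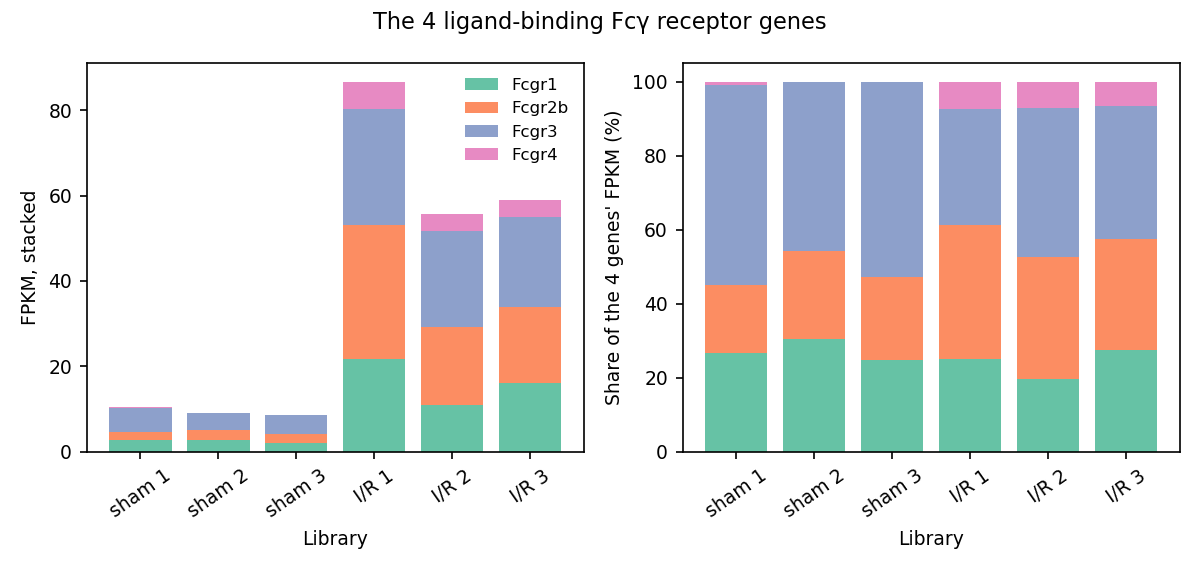
Stacked bars of the 4 Fcγ receptor genes in each library, on the left as FPKM and on the right as a share of their sum in percent. The bars of the 3 I/R libraries are higher (55.7 to 86.7 against 8.56 to 10.4 FPKM), with a wider Fcgr2b part, a narrower Fcgr3 part and an Fcgr4 part that is close to absent in sham.

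Ratios between members were planned for 8 pairs, of which 3 had reads for both genes in every library. The log2 ratio of Fcgr3 to Fcgr2b, an activating over the inhibitory receptor, was 0.12 ± 0.27 after I/R and 1.24 ± 0.30 in sham (SD, n = 3), a difference of -1.12. That of Fcgr1 to Fcgr2b was -0.47 ± 0.32 and 0.34 ± 0.196, a difference of -0.81. Both ratios were lower in each I/R library than in each sham library. Fcgr2b and Fcgr3 share part of their transcripts, as given above. Their ratio, and their shares in the receptor sum, are uncertain to that extent. The log2 ratio of Fcer1g to Tyrobp, the other ITAM adaptor of myeloid cells, was -0.57 ± 0.118 after I/R and -0.85 ± 0.125 in sham, a difference of 0.27. Each of these 3 had an exact permutation p of 0.1, the smallest possible, and 0.1 after Benjamini-Hochberg adjustment. After I/R the log2 ratio of Fcgr4 to Fcgr2b was nearly the same in the 3 libraries, -2.24 ± 0.0489, and that of Clec4e to Clec4d was -2.70 ± 0.458. Clec4e had 77, 12 and 19 counts in these libraries, so counting error alone widens the spread of its ratio, and the spreads are not compared.

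Markers of some other cells moved with these genes, and those of others did not. Over all genes tested 21.8% were called higher. The summed CPM of 10 markers of homeostatic microglia was 287.6 to 321.6 in sham and 277.2 to 377.4 after I/R, with 2 called higher, 4 called lower (Tmem119 by -0.68 and P2ry12 by -1.67 on the log2 scale, edgeR) and 4 not called. The sum of 5 markers of all leukocytes and myeloid cells was 18.0 to 20.0 CPM in sham and 68.3 to 119.5 CPM after I/R, and each of the 4 that could be tested was called higher, among them Ptprc (CD45) at 1.86. Itgam was listed at 0 counts in all 6 libraries. Monocyte markers summed to 27.2 to 30.2 CPM in sham and 40.2 to 54.4 CPM after I/R (3 of 3 tested called higher), nearly all of it Vcan, which other cells express too and which had a mean of 28.9 CPM in sham and 39.9 CPM after I/R. Ccr2 had a mean of 0.15 CPM in sham and 1.52 CPM after I/R, and Chil3 0.06 and 3.67 CPM. Both Ccr2 and Chil3 passed the filter on low counts only through their I/R libraries, so that a difference was built into their being tested. Border macrophage markers summed to 11.7 to 14.8 and 35.3 to 66.4 CPM (5 of 7 called higher). Neutrophil markers summed to 4.27 to 5.74 and 9.98 to 40.5 CPM (4 of 5 tested called higher, all 4 having passed the filter only through their I/R libraries), the 40.5 in I/R replicate 1, where the members were highest too, and Ly6g had 1 count in all libraries together. Mast cell and NK cell markers were too low to test, and of the B cell markers 1 was tested (Cd79a) and not called. Hippocampal neuron markers, a check of the labelled tissue, summed to 1045 to 1078 CPM in sham and 374.8 to 643.3 CPM after I/R, lowest in I/R replicate 1. Choroid plexus markers summed to 31.9 CPM in I/R replicate 3 and 35.9 CPM in sham replicate 1 and to between 1584 and 4381 CPM in the other 4 libraries, and without either of those libraries the same 8 members were called. The part of any of these cells in the members' changes was not tested.

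The members were also set against marker RNA within each library. Relative to the summed microglia markers, Fcgr1, Fcgr2b, Fcgr3, Fcer1g and Syk were each higher in every I/R library than in every sham library, by 2.29, 3.10, 1.98, 2.24 and 1.25 on the log2 scale (exact permutation p = 0.1 for each). Relative to Ptprc, which marks all leukocytes, Fcgr2b was higher by 1.35, with ratios of 1.51, 1.72 and 1.13 after I/R and 0.14, 0.42 and -0.25 in sham that did not overlap (exact permutation p = 0.1, the smallest possible). Fcgr1 was higher by 0.54, also without overlap, but by 0.26 when sham replicate 3 was left out. Fcgr3 (0.23), Fcer1g (0.50) and Syk (-0.49) overlapped between the groups per Ptprc. Clec4a2 was lower per Ptprc in every I/R library, by -1.28 on the log2 scale, with ratios of -3.64, -3.71 and -4.02 against -2.15, -2.65 and -2.73 (exact permutation p = 0.1). The 3 members without reads in every sham library have no such ratio.

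**Figure D4:**
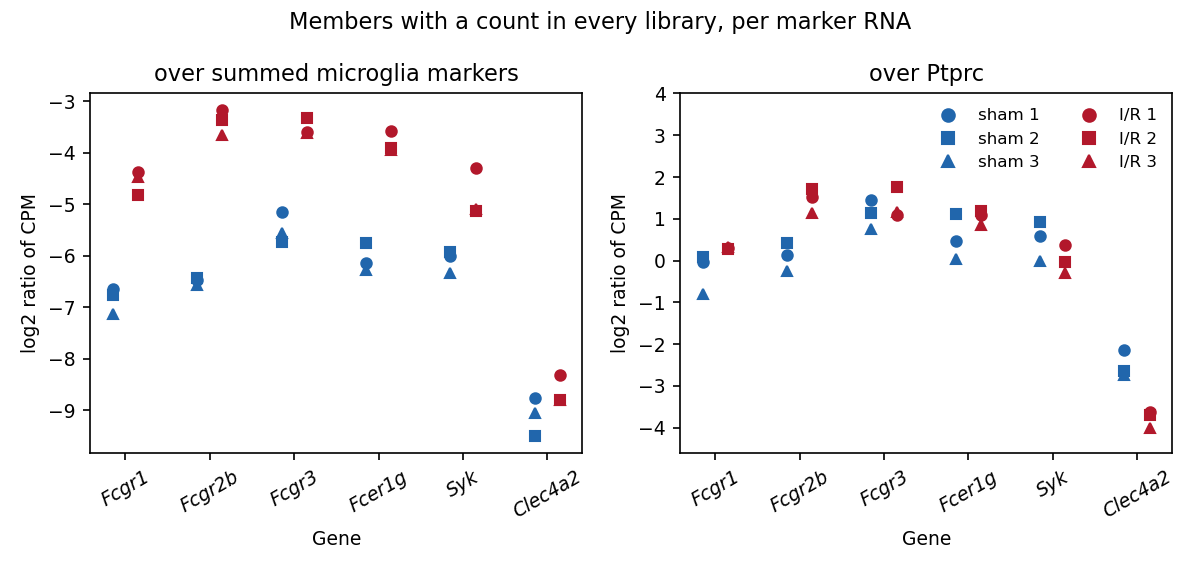
Log2 ratio of the CPM of each gene to the summed CPM of 10 microglia markers (left) and to the CPM of Ptprc (right) in the 6 libraries, for the 6 members with reads in every library; blue is sham, red I/R, symbols as in the legend. On the left the red points are above the blue for each gene except Clec4a2, and on the right only Fcgr1 and Fcgr2b have all red points above the blue, while those of Clec4a2 lie below.

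Genes of the same pathways were taken from lists of 114 entries, of which 107 were named in the table and 80 were tested: 40 were called higher, 7 lower and 33 were not called, with a median log2 fold change of 0.86 beside 0.03 over all genes tested. Of these 80 genes 20 did not pass the filter on low counts in both groups taken alone, among them 14 called higher that passed through their I/R libraries only and 1 called lower that passed through its sham libraries only, so that a difference was built into their being tested. Of the 60 that passed in each group alone, 26 were called higher and 6 lower. The matching share of all genes that passed in each group alone is not given here. Over all genes tested 41.8% were called and 21.8% were called higher, and the count of each list is to be set beside these. Among other Fc receptors 2 of 6 tested were called higher. Fcrls, a microglial Fc receptor-like molecule, rose by 2.22 (SE 0.235, edgeR adjusted p = 0.000662) from 618, 835 and 640 counts in sham to 5367, 2488 and 3030, and Trim21, the cytosolic antibody receptor, by 0.90 (edgeR adjusted p = 0.0326, a call lost without any one of I/R replicates 2 and 3 and sham replicates 1 and 2, at up to 0.0753). Fcgrt, the neonatal Fc receptor, had -0.26 and was not called.

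Of the other C-type lectins 8 of 17 tested were called higher and 3 lower, beside 21.8% of all genes called higher. Clec7a and Clec4n passed the filter only through their I/R libraries, and Clec9a only through its sham libraries. Clec7a (Dectin-1, the β-glucan receptor) rose by 3.24 (SE 0.605), Cd93 by 2.95 (SE 0.29) and Clec4n (Dectin-2, an Fcer1g partner) by 2.42 (SE 0.588), with edgeR adjusted p of 0.00451, 0.000509 and 0.0131. The call of Clec4n was lost without sham replicate 1 or 2 (0.0508 and 0.0597), and its change was 1.81 without I/R replicate 1 and 3.01 without sham replicate 3. Clec4n lies between Clec4a2 and Clec4d, and it was the one gene called among the 2 tested of 6 other genes in that stretch of chromosome 6. Clec4a1 (1.34, SE 0.611) and Clec4a3 (1.01, SE 0.654), the relatives of Clec4a2, were not called (edgeR adjusted p = 0.115 and 0.252). Their counts were low, they passed the filter only through their I/R libraries, and with these SE a rise is not excluded. Clec11a, a growth factor, fell by 1.05 (edgeR adjusted p = 0.0154, and 0.0664 without sham replicate 2), and Clec9a, a receptor of dendritic cells, fell by 1.70 (edgeR adjusted p = 0.0481), a call lost when any single library was left out (0.0556 to 0.158). In the stretch of chromosome 1 that holds Fcgr2b, Fcgr4, Fcgr3 and Fcer1g there were 11 other genes, of which 5 were tested and 0 called by edgeR. At an unadjusted p under 0.05 edgeR had 1 of the 5, limma-voom called 0, and DESeq2 called 1, Tomm40l.

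Of the other ITAM adaptors and their receptors 5 of 9 tested were called higher and 1 lower, beside 21.8% of all genes called higher. Of the 5, 3 (Trem1, Trem3 and Cd300lb) passed the filter only through their I/R libraries. Tyrobp (DAP12) had 2096, 1100 and 1086 counts after I/R and 293, 377 and 238 in sham, and rose by 2.09 (SE 0.233, edgeR adjusted p = 0.000736). Trem2, a Tyrobp partner of microglia, rose by 0.84 (edgeR adjusted p = 0.0082), while Trem1 and Trem3, partners found on neutrophils and monocytes, had 3 counts or fewer in every sham library and were at least 12.9-fold and 8.09-fold higher. For Trem1 the bound was 7.1-fold without I/R replicate 1. Cd300lb rose by 4.88 (SE 0.827, edgeR adjusted p = 0.00309), with 4.27 and 6.73 when sham replicate 2 or 3 was left out. Siglech, a Tyrobp partner of microglia, fell by 1.91 (SE 0.179, edgeR adjusted p = 0.000435).

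Of the kinases and signalling proteins below ITAMs 13 of 27 tested were called higher and 1 lower, beside 21.8% of all genes called higher. The Src-family kinase Fgr rose by 4.001 (SE 0.687, edgeR adjusted p = 0.00324), and by 3.02 without I/R replicate 1, having passed the filter only through its I/R libraries. The adaptor Lat2 rose by 2.52, the exchange factor Vav1 by 2.22 and the kinase Btk by 2.01, with edgeR adjusted p of 0.00317, 0.00112 and 0.00135. Of the CARD9 complex that acts downstream of Syk in lectin signalling, Bcl10 rose by 0.98 (edgeR adjusted p = 0.000681), while the calls of Card9 (0.87, edgeR adjusted p = 0.036) and Malt1 (0.54, edgeR adjusted p = 0.0336) were each lost without any one of 5 libraries, at up to 0.121. Plcg2, a phospholipase, had 0.63 and was not called (edgeR adjusted p = 0.0569). Src itself, which neurons also express, fell by 0.75 (edgeR adjusted p = 0.00125).

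On the inhibitory side, of ITIM receptors and phosphatases 11 of 18 tested were called higher and 1 lower, beside 21.8% of all genes called higher. Of the 11, 8 passed the filter only through their I/R libraries, the first 3 named next among them. Lilrb4a, an ITIM receptor with a near-identical copy that could take some of its reads, had 2201, 751 and 883 counts after I/R and 10, 9 and 3 in sham, a change of 7.25 (SE 0.531, edgeR adjusted p = 0.000256). Cd72 rose by 6.22 (SE 0.557, edgeR adjusted p = 0.000375; 6.98 without sham replicate 1), and Cd200r1, with 1 count in each sham library, was at least 12.2-fold higher. Of the phosphatases used by ITIMs, Ptpn6 (SHP-1) rose by 1.82 (edgeR adjusted p = 0.00237) and Inpp5d (SHIP-1) by 0.81 (edgeR adjusted p = 0.00985), while Ptpn11 (SHP-2) had -0.01 and was not called (edgeR adjusted p = 0.917). Sirpa, the CD47 receptor, which neurons express as well, fell by 0.86 (edgeR adjusted p = 0.00123). Of 11 genes listed as ligands 3 could be tested. Ptx3, a pentraxin that binds Fcγ receptors, rose by 5.86 (SE 0.479, edgeR adjusted p = 0.000315), and Ighm, the heavy chain of immunoglobulin M, fell by 1.17 (edgeR adjusted p = 0.0036). Sap130 had 0.15 and was not called, and this symbol is not that of the nuclear protein bound by Clec4e.

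**Figure D5:**
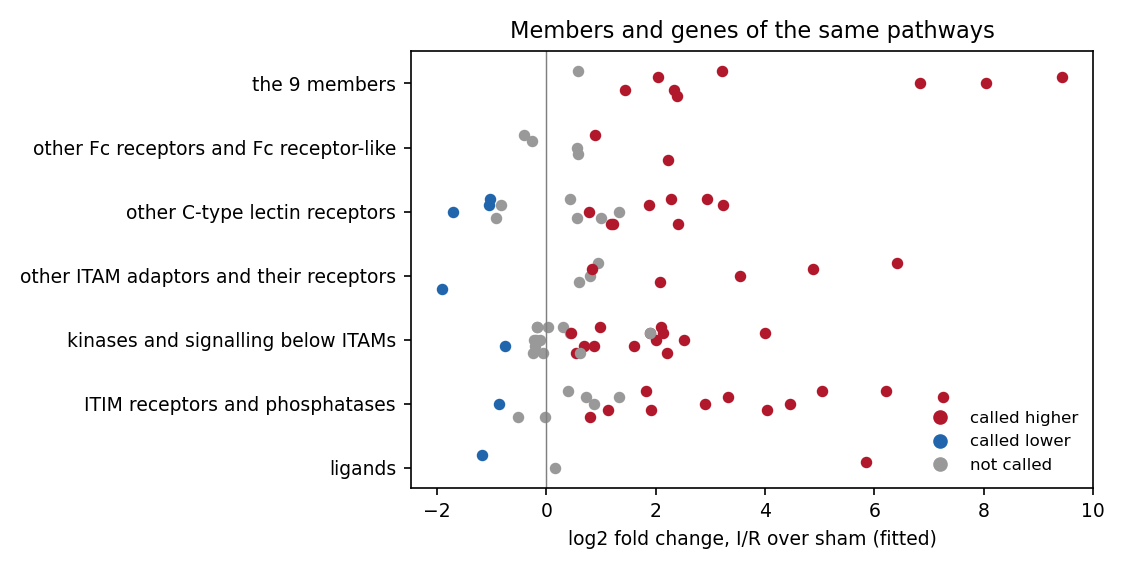
Fitted log2 fold change, I/R over sham, of the members (top row) and of the tested genes of 6 pathway lists, 1 point per gene; red is called higher, blue called lower and grey not called, and the small vertical offsets only separate points. Every list has red points, the highest kinase point is Fgr at 4.001 and the highest ITIM receptor point Lilrb4a at 7.25, below the fitted points of Clec4e and Clec4d.

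The genes whose pattern was most like that of the members were found by the distance, over the 6 libraries, between log2(CPM + 0.5) centred on the sham mean and the median of the same over the 9 members, among 15474 other genes of at least 1 CPM. The nearest was Itgb2 (CD18, the β chain of leukocyte integrins), at a distance of 0.142, with 31.1, 18.3 and 20.8 CPM after I/R and 4.82, 5.39 and 4.74 CPM in sham. Rai14 (0.165), Anxa3 (0.188), Stat3 (0.19) and an unnamed locus assembled by the authors (0.203) followed. The members' median profile was 2.56, 1.79 and 1.88 above the sham mean in I/R replicates 1, 2 and 3, and I/R replicate 1 was the highest library in all 5 of these genes.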

How the data were processed

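Bulk RNA-seq of hippocampus was available as 1 table for 6 libraries, grouped as I/R or sham by the sample titles. The authors, as the study's methods state, aligned reads with TopHat 2 and counted them per gene with HTSeq; the submitters' processing notes name Bowtie 0.12.2 and the build mm8, whereas the table's identifiers are those of Ensembl's BALB/cJ annotation (40303 genes) and of 1083 loci assembled by the authors, used on mice labelled C57BL/6 (C57BL/6J in the study's methods). The deposited raw counts are whole reads per gene. The deposited FPKM were made by the authors from these counts, the gene length and the library's reads; the length they imply was shorter than the table's length column for most members. Whether counting used strand, and how multiply mapped reads were treated, is not given in the sources used here. Fold change and p-value columns of the authors' own comparison were not used. Of 41390 lines in the file, 4 were the broken-off ends of others and were put back, which left 41386 genes.

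Library totals were 37493042 to 44788547 counts. Counts were kept by filterByExpr and tested with edgeR 4.0.16 (TMM scaling, quasi-likelihood test with robust estimation, no covariates) in R 4.3.3, with Benjamini-Hochberg adjustment over 18569 genes. Calls needed an adjusted p under 0.05 and a fold over 1.2. CPM give counts per 1000000 of the effective library size after TMM. A library with 3 counts or fewer was taken to be at the floor, and intervals and floors cover counting error only. Ratios, shares and marker ratios were tested by exact two-sided permutation tests over the 6 libraries. Only the edgeR fit was tested on simulated counts, in which far fewer genes changed than were called in these data. The other steps were not tested in this way. Alternatives were other scalings, count filters, DESeq2 1.42.0, limma 3.58.1 with voom or on log2(FPKM + 1) and log2(FPKM + 0.1), a replicate block, a fold over 2 and leaving out each library.

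The members and lists were chosen with earlier results of these data known. Genes named beside the members were, in each pathway list, the 3 called genes with the largest rise and the 2 with the largest fall, plus a fixed set of pathway genes, cell type markers and the 5 most alike genes. Clec4b1, Clec10a, Sirpb1a, Pilrb1, Pira2, Lyn, Pirb, Ly6c2 and Klrb1c are not analysed here. Replicate numbers did not pair the libraries: the deviations of equally numbered I/R and sham libraries from their group means had correlations across genes of -0.0967, 0.0556 and -0.184.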

Additional observations from a re-analysis of the deposited data

How the results depend on the processing

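Under 16 alternatives for each member (15 for Fcgr4, Clec4d and Clec4e), directions held, and the one member call that changed was that of Clec4e on log2(FPKM + 1), 0.48 with a limma adjusted p of 0.0654. With at least 10 counts in every library 5 of 6 members tested were called, because Fcgr4, Clec4d and Clec4e, with sham counts at or near 0, were not tested there. With a fold change over 2 the count of all genes called was 2760, against 7756. The replicate numbers do not pair the libraries. With the replicate number as a block 8 members were again called, the log2 fold change of Fcgr1 was 2.37 and that of Syk 1.34, and 6332 of all genes were called. Scaling by library size alone moved the median log2 fold change of all genes from 0.03 to 0.28. Leaving out each library of the marker ratios and receptor shares was added after the data were seen, and no ratio or share changed direction. The main limits are the 3 pools per group, I/R replicate 1, which held 39.7% to 71.3% of a member's I/R counts, and the low counts of Clec4a2, Clec4e and Clec4d.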
